A study of Mus musculus with 12 samples.

Results

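The genes described here encode nebulin and its muscle relatives, the muscle kelch proteins and leiomodin-3, 10 genes in all among the 19938 genes that were measured. They were chosen by name (Neb, Nrap, Nebl, Klhl40, Klhl41, Klhl31, Klhl30, Klhl38, Kbtbd13 and Lmod3) and not by their values. All 10 had a probe set, the group of probes on the array that stands for a gene, and Nebl and Klhl31 had 2 probe sets each, so that 12 of the 21789 probe sets tested belonged to them. Where a gene had 2, the probe set with the higher mean over all arrays stood for it, and the other is given beside it. The tissue was quadriceps from C57Bl/6 mice aged 7 days, with 6 arrays labelled KO from mice described as cofilin-2 null and 6 arrays labelled WT from wildtype littermates. Both groups had the same strain, muscle and age, each array carried the RNA of 1 mouse by the methods of the study, and the construct that removed cofilin-2 is not given in the sources used here.

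Nebulin is a giant protein that runs along the thin filaments of skeletal muscle and is anchored at the Z-disc, the plate to which thin filaments of neighbouring sarcomeres attach. Its relatives NRAP and nebulette carry the same kind of actin-binding repeat. Kelch proteins of the kind studied here join a BTB domain, which binds the ubiquitin ligase scaffold cullin-3, to a propeller of kelch repeats that binds partner proteins, and leiomodins start new actin filaments. In humans, mutations of NEB, KLHL40, KLHL41, KBTBD13 and LMOD3 cause nemaline myopathy, as do those of CFL2, the gene of cofilin-2.

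The labels did not match the level of the gene that was knocked out. Cfl2 lay between 12.31 and 12.43 (log2 level) on the arrays labelled KO and between 4.92 and 7.71 on the arrays labelled WT, against the labels on all 12 arrays, a difference of 6.32 ± 0.36 (SE, adjusted p = 1.98e-07 in limma). This is opposite to the direction in which the study gives Cfl2 in its knockout mice. All arrays were left in their labelled groups, so that higher and lower, and rise and fall, follow the deposited titles. If the titles of both groups were exchanged in the deposited table, every direction and ratio given here would turn round. Whether the titles were exchanged was not tested further. The deposited values ran from 3.11 to 14.02, and array medians over the whole table from 6.35 to 6.41 on the arrays labelled KO and from 6.42 to 6.46 on those labelled WT. The 10 skeletal muscle markers averaged 12.43 to 12.69 on the arrays labelled KO and 12.06 to 12.56 on those labelled WT. The 7 cardiac markers averaged 6.15 to 6.38 with the label KO and 6.41 to 6.56 with the label WT. The Y-linked genes averaged 5.65 and 6.38 on the arrays labelled KO3 and KO1, below 5 on those labelled WT3 and WT4, and 8.06 to 8.53 on the others. The mice were thus not all of 1 sex, and why KO3 and KO1 lay between the others was not tested.

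Promoter sequences were available for 6 of the 10 genes, and 4 are shown because they belong to the kelch gene with the largest difference, to both nebulin-stabilizing kelch proteins and to the nebulin relative that was lower. Each is the stretch of 250 bases before the annotated start of the gene in RefSeq (build GRCm38.p6), for Kbtbd13 at chr9:65391653-65391902 (minus strand), for Klhl40 at chr9:121777357-121777606 (plus strand), for Klhl41 at chr2:69669870-69670119 (plus strand) and for Nrap at chr19:56390039-56390288 (minus strand). Capitals mark E-boxes (CANNTG), which myogenic factors such as MyoD can bind, and the MEF2 box.
Kbtbd13: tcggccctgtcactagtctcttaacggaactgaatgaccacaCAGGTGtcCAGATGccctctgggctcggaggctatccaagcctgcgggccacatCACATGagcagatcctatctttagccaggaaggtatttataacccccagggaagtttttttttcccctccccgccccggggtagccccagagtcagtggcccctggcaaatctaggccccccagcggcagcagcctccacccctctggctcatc
Klhl40: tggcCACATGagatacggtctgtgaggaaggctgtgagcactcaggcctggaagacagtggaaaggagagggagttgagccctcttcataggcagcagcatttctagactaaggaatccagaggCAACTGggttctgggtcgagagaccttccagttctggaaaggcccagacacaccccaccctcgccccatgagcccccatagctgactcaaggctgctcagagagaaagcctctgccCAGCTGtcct
Klhl41: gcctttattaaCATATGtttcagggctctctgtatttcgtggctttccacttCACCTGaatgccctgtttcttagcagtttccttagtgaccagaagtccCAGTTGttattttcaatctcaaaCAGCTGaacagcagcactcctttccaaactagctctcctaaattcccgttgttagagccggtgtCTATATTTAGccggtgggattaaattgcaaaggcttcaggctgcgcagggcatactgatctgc
Nrap: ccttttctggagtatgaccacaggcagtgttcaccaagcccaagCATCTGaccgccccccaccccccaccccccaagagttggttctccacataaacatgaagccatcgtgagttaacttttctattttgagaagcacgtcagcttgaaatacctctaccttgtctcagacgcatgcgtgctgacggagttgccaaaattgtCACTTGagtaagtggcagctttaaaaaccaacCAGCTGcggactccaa
The 4 motifs searched, on both strands, were the E-box, the MEF2 box, the CArG box of serum response factor and the MCAT element (CATTCC), and no 2 matches overlapped in these 4 windows. Kbtbd13, Klhl40 and Nrap held 3 E-boxes each and Klhl41 held 4. Of all 32851 promoter windows of this length, 12.2% held 3 or more and 66.2% held at least 1. The genes not shown held fewer, with 0 E-boxes for Klhl31 and 1, 0, 1 and 0 in the 4 windows of Nebl. The MEF2 box of Klhl41 was the only one among the 6 members with a window, and 1.69% of all windows held one. None of the 4 windows shown held a CArG box, which 1.47% of all windows held, or an MCAT element, which 12.6% held. Of the windows not shown, 1 of Nebl held a CArG box and another of Nebl an MCAT element. Kbtbd13 and Klhl40, which were higher on the arrays labelled KO, thus had as many E-boxes in these windows as Nrap, which was lower. A match of letters does not show that a factor binds.

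Among the 10, 3 had higher levels in labelled KO muscle (Kbtbd13, Lmod3 and Klhl40), 3 were lower (Klhl38, Nrap and Neb) and 4 did not pass (Nebl, Klhl41, Klhl31 and Klhl30), at an adjusted p of 0.05 in limma, with Benjamini-Hochberg adjustment over all probe sets. Of all 19938 genes 31.9% passed, with 20.1% of all genes higher and 11.8% lower. The median log2 difference of the 10 genes was -0.015, equal to that of all genes to this precision, while their median absolute difference was 0.25 against 0.11 for all genes. The groups did not overlap for 4 of the 10 genes, 3 higher and 1 lower. Over all genes 15.4% did not overlap, 10.7% higher and 4.69% lower.

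**Figure D1:**
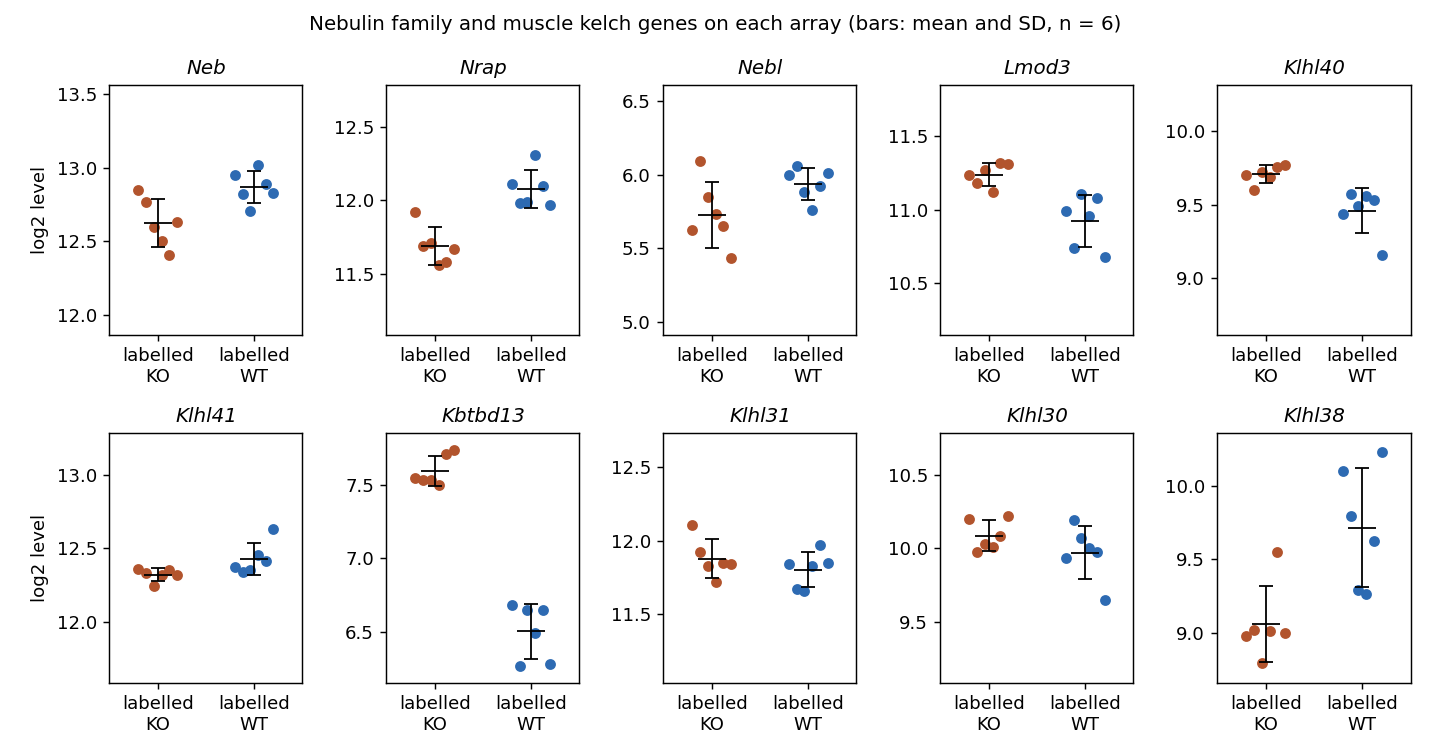
Log2 level (y axis) of the 10 genes on each of the 12 arrays, labelled KO at the left and labelled WT at the right of each panel. Each point is an array, bars give the mean and SD (n = 6 each), and all panels span the same range of log2 units. Kbtbd13 lay between 7.50 and 7.74 on the arrays labelled KO and between 6.27 and 6.68 on those labelled WT.

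Kbtbd13 had by far the largest difference of the 10. KBTBD13 is a kelch protein of skeletal muscle that binds cullin-3 and affects how fast muscle relaxes. Its log2 level had a lowest value, median and highest value of 7.50, 7.54 and 7.74 on the arrays labelled KO, against 6.27, 6.57 and 6.68 on the arrays labelled WT. The groups were well apart, and the arrays labelled WT2 and WT6 were the lowest, at 6.27 and 6.28. The difference was 1.09 ± 0.08 (SE), a KO/WT ratio of 2.13 by the labels, with an adjusted p of 1.14e-06 in limma. Of all genes, 74 (0.371%) were higher by at least this amount and 61 were lower by at least this amount. No detection calls were at hand, so that the floor of this probe set is unknown and the ratio is not exact.

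Lmod3, which encodes the leiomodin that nucleates thin filaments in skeletal muscle, was higher by a smaller amount. Its levels were 11.12, 11.255 and 11.32 (lowest, median and highest) on the arrays labelled KO, against 10.68, 10.975 and 11.11 on the arrays labelled WT. The highest array labelled WT came within 0.01 of the lowest labelled KO without overlap. The difference was 0.31 ± 0.07 (SE), a ratio of 1.24, with an adjusted p of 0.00532 in limma.

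Klhl40 encodes a kelch protein that in mouse muscle stabilizes nebulin and leiomodin-3 rather than marking them for breakdown. Its levels were 9.60, 9.71 and 9.77 on the arrays labelled KO, against 9.16, 9.51 and 9.57 on those labelled WT. The array labelled WT6 lay below all others, and the remaining arrays labelled WT lay between 9.44 and 9.57. The difference was 0.25 ± 0.06 (SE), a ratio of 1.19, with an adjusted p of 0.00967, and it was 0.19 without the array labelled WT6 (adjusted p = 0.00429). With the mean level of the adipocyte markers as a covariate it was 0.25 ± 0.09 (SE) with an adjusted p of 0.0716.

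Nrap was lower on every array labelled KO than on any labelled WT. NRAP is a nebulin-related scaffold of nascent myofibrils and of the sites where myofibrils end at the membrane. Its levels were 11.56, 11.68 and 11.92 on the arrays labelled KO, against 11.97, 12.045 and 12.31 on the arrays labelled WT. The difference was -0.39 ± 0.07 (SE), a ratio of 0.764, with an adjusted p of 0.000895 in limma.

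Neb, the gene of nebulin, was lower by less, and its groups overlapped. Its levels were 12.41, 12.615 and 12.85 on the arrays labelled KO, against 12.71, 12.86 and 13.02 on those labelled WT. The arrays labelled KO1 and KO2, at 12.85 and 12.77, lay above the lowest array labelled WT. The difference was -0.24 ± 0.07 (SE), a ratio of 0.845, with an adjusted p of 0.0229 in limma. Without the array labelled KO4 or KO5 it was -0.22 or -0.20 (adjusted p = 0.0551 and 0.0501), so that the call rests on each of these arrays.

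Nebl encodes nebulette, the short relative of nebulin at cardiac Z-discs, and did not pass. It lay at 5.43 to 6.09 on the arrays labelled KO and at 5.76 to 6.06 on those labelled WT, with a difference of -0.21 ± 0.09 (SE, adjusted p = 0.0966 in limma). Its other probe set differed by -0.11 ± 0.05 (SE, adjusted p = 0.0964). Without the array labelled KO2, the highest of all 12, the difference was -0.28 with an adjusted p of 0.0127. Lasp1, the other nebulin relative measured, encodes a short LIM and SH3 protein of many cell types. It lay at 9.99 to 10.16 on the arrays labelled KO and at 9.06 to 9.83 on those labelled WT, and was higher by 0.60 ± 0.11 (SE, adjusted p = 0.001). Neb, Nrap and both probe sets of Nebl thus differed in the same direction, Nebl without passing, and Lasp1 in the other. Both probe sets of Nebl were dim, with means of 5.83 and 5.17 over all arrays. Their floor is unknown, so that their direction carries little weight.

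Klhl41, a kelch protein that also stabilizes nebulin in the mouse, had levels of 12.24, 12.325 and 12.36 on the arrays labelled KO, against 12.34, 12.39 and 12.63 on those labelled WT. The array labelled WT6 was the highest, and 1 array labelled KO (KO3) was below the other 5. The difference was -0.10 ± 0.05 (SE, adjusted p = 0.125 in limma), with a 95% interval from -0.21 to 0.0025.

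Klhl31, whose loss causes myopathy in mice, gave different answers by probe set. Its probe set of higher mean lay at 11.72 to 12.11 on the arrays labelled KO and at 11.66 to 11.97 on those labelled WT, a difference of 0.08 ± 0.07 (SE, adjusted p = 0.424). The other lay at 11.46 to 11.89 with the label KO and at 11.37 to 11.56 with the label WT, and was higher by 0.22 ± 0.06 (SE, adjusted p = 0.0214). Whether these probe sets see different transcripts was not tested. Klhl30, a kelch gene of striated muscle, lay at 9.97 to 10.22 on the arrays labelled KO and at 9.65 to 10.19 on those labelled WT. Its difference was 0.12 ± 0.08 (SE, adjusted p = 0.273), with a 95% interval from -0.05 to 0.28.

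**Figure D2:**
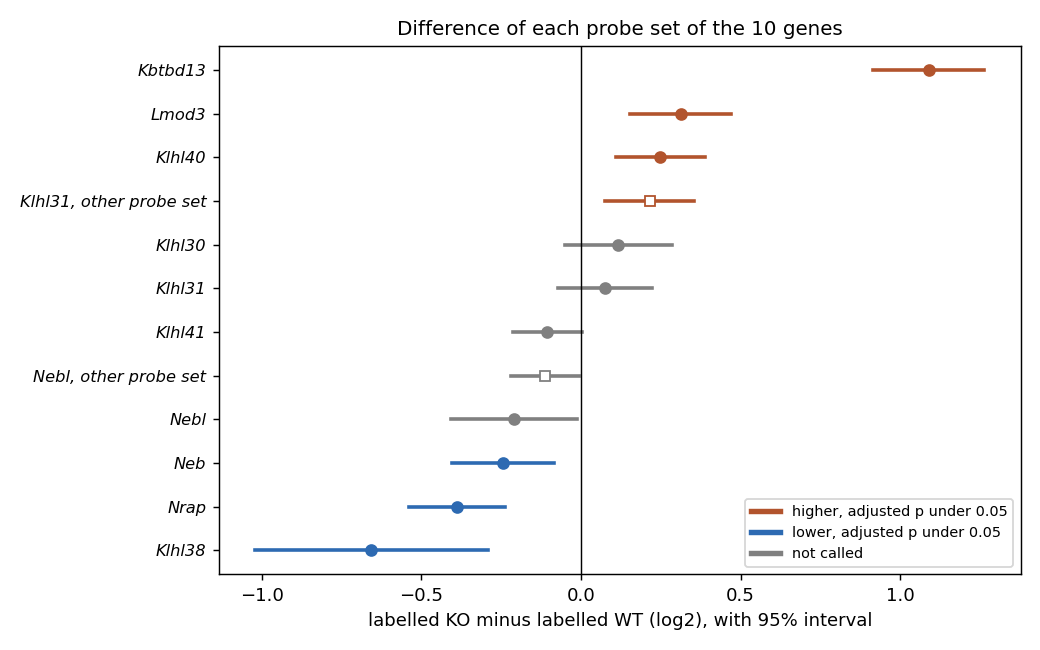
Difference in log2 level, labelled KO minus labelled WT (x axis), of each of the 12 probe sets of the 10 genes, with the 95% interval from limma. Filled circles are the probe sets that stand for a gene and open squares the other probe sets of Nebl and Klhl31. The interval of Kbtbd13 runs from 0.92 to 1.26, above those of all other probe sets shown.

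Klhl38 had the largest fall and the widest spread. Its levels were 8.79, 9.005 and 9.55 on the arrays labelled KO, against 9.26, 9.705 and 10.23 on the arrays labelled WT. The array labelled KO5, at 9.55, lay above the arrays labelled WT3 and WT4, at 9.29 and 9.26. The difference was -0.66 ± 0.17 (SE), a ratio of 0.634, with an adjusted p of 0.0091 in limma. The highest arrays were those labelled WT6 (10.23), WT1 (10.10) and WT2 (9.79). The mean of 19 genes that respond to fasting and glucocorticoids was 8.89 to 9.06 for the labelled KO arrays. It was 10.21, 9.75 and 10.12 for WT6, WT1 and WT2 and 9.15 to 9.31 for WT3, WT4 and WT5. In that list 11 genes were lower and 0 higher, with a median log2 difference of -0.56. Leaving out WT6, WT1 and WT2, the highest arrays for Klhl38 itself, had to shrink its difference and left only WT3, WT4 and WT5 with that label. The Klhl38 difference was then -0.33 with an adjusted p of 0.122. Without the arrays labelled KO1 and KO3, whose Y-linked levels were intermediate, it was -0.57 (adjusted p = 0.0504), and after adjustment for the adipocyte markers -0.51 (adjusted p = 0.148). The part of fasting and stress hormones in the Klhl38 difference was not tested.

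**Figure D3:**
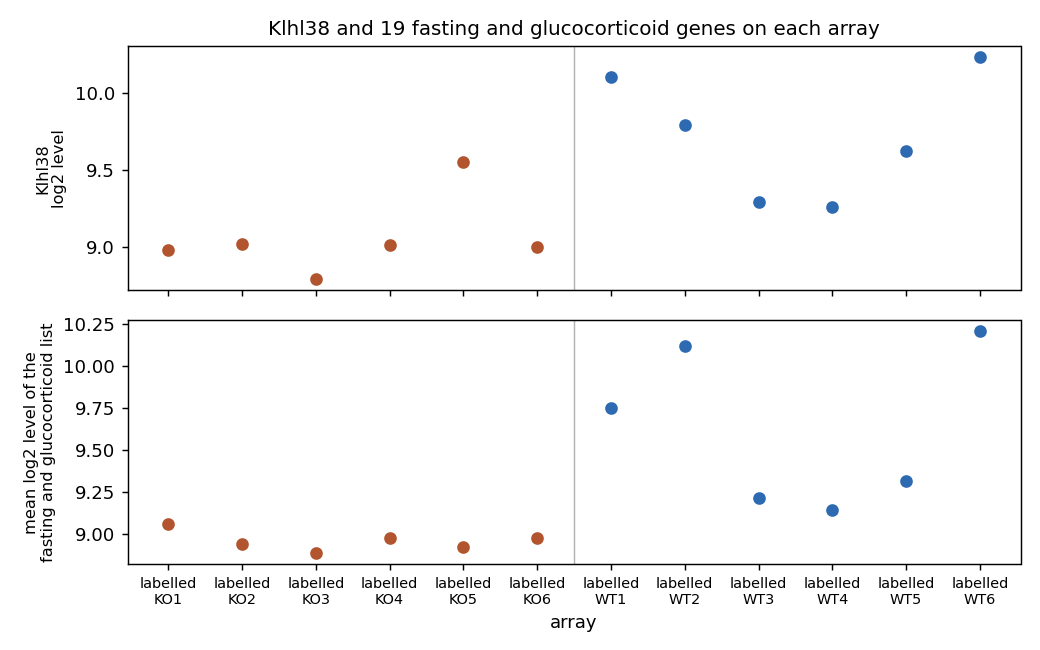
Log2 level of Klhl38 (top) and mean log2 level of 19 fasting and glucocorticoid genes (bottom) per array (12 in all), labelled KO at the left and labelled WT at the right. The arrays labelled WT1, WT2 and WT6 were the highest in both panels.

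Levels of different probe sets cannot be set against each other, but the change of 1 gene relative to another on the same array does not depend on a shift of the whole array. The log2 level of 1 gene minus that of another was therefore taken on each array for 8 fixed pairs. These were known partners or relatives, except Kbtbd13 and Neb, which are both mutated in nemaline myopathy in humans. Intervals of these differences came from limma. Each pair was compared between the groups by a two-sided exact permutation test over the 924 assignments of the arrays, adjusted over the 8 pairs. The smallest p this allows is 0.00216.

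Klhl40 rose relative to Neb. Klhl40 minus Neb lay at -3.17 to -2.65 on the arrays labelled KO and at -3.67 to -3.22 on the arrays labelled WT, with no overlap. The groups differed by 0.49 ± 0.11 (SE, exact p = 0.00216, adjusted p = 0.00577). For Klhl40 and Lmod3 the difference was -0.07 ± 0.07 (SE, exact p = 0.474, adjusted p = 0.542), with a 95% interval from -0.23 to 0.10. For Klhl41 and Neb the difference was 0.14 ± 0.09 (SE, exact p = 0.141, adjusted p = 0.188), with an interval from -0.05 to 0.33. KLHL41 binds NRAP, and their genes changed unequally. Klhl41 minus Nrap was higher on the arrays labelled KO by 0.28 ± 0.09 (SE, exact p = 0.0173, adjusted p = 0.0277). The groups overlapped through the array labelled WT6, at 0.66, and without the array labelled KO4 or KO5 the adjusted p was 0.0519.

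Kbtbd13 rose relative to Neb on every array labelled KO, with values of -5.30 to -4.70 there and -6.55 to -6.06 on the arrays labelled WT, a difference of 1.33 ± 0.12 (SE, exact p = 0.00216, adjusted p = 0.00577). Nrap fell by more than Neb, with a difference of -0.14 ± 0.04 (SE, exact p = 0.00866, adjusted p = 0.0173) and groups that overlapped. With limma in place of the permutation test the adjusted p of that pair was 0.0567. For Nebl and Neb the difference was 0.03 ± 0.12 (SE, exact p = 0.827, adjusted p = 0.827), with an interval from -0.21 to 0.28.

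The leiomodins moved apart. Lmod2, the leiomodin best known from the heart, lay at 9.58, 9.905 and 10.41 on the arrays labelled KO, against 10.59, 10.855 and 10.95 on the arrays labelled WT. It differed by -0.86 ± 0.13 (SE, adjusted p = 0.000231 in limma), whereas Lmod3 was higher. Lmod3 minus Lmod2 was 0.83 to 1.73 on the arrays labelled KO and -0.22 to 0.42 on those labelled WT, a difference of 1.17 ± 0.17 (SE, exact p = 0.00216, adjusted p = 0.00577).

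**Figure D4:**
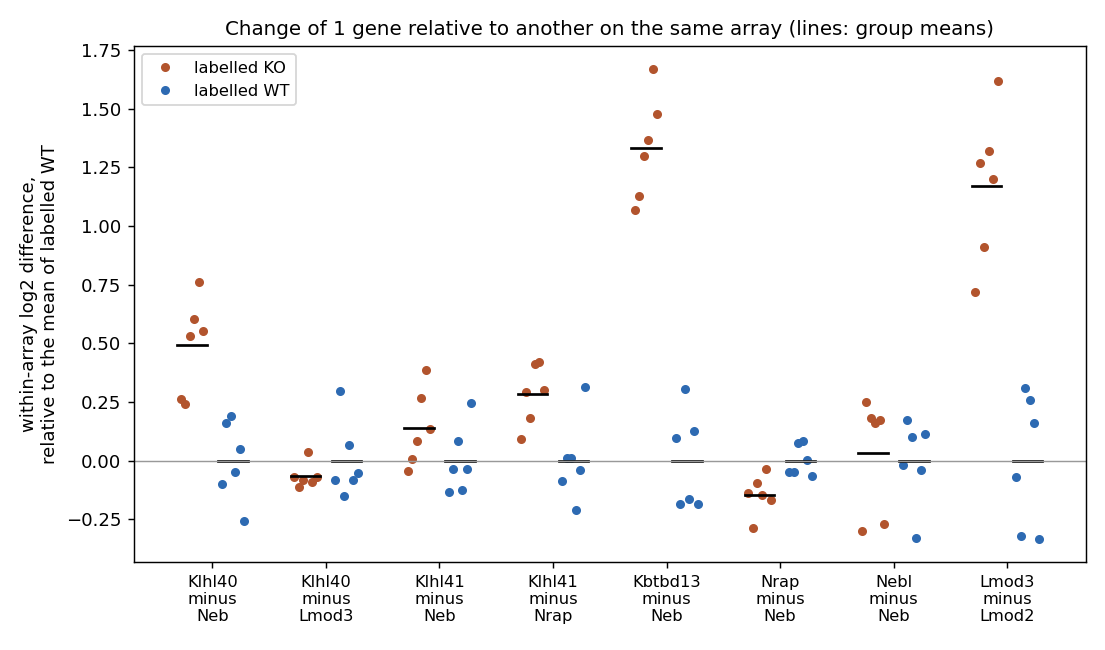
Log2 level of 1 gene minus that of another on the same array, drawn relative to the mean of the arrays labelled WT (y axis, log2 units), for 8 pairs (x axis). Each point is an array, labelled KO at the left and labelled WT at the right of each pair, and lines are group means. Kbtbd13 minus Neb, Lmod3 minus Lmod2 and Klhl40 minus Neb did not overlap between the groups.

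Among 42 other genes of the kelch family, 10 were higher and 7 lower, with a median log2 difference of 0.02. The largest was Klhl33, which lay at 7.52 to 7.99 on the arrays labelled KO and at 5.53 to 6.85 on those labelled WT, a difference of 1.42 ± 0.18 (SE, adjusted p = 7.43e-05 in limma). Klhl4 followed with 1.005 ± 0.17 (SE), and Klhl29 and Klhl24 differed by -0.37 and -0.33. Kbtbd13, Klhl33 and Klhl4 were the only kelch genes examined that differed by more than 1 log2 unit. The count of other kelch genes that were higher was 5 with quantile normalization.

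The kelch proteins act through the cullin-3 ligase, whose genes were also examined. Of 23 measured genes of the ligase and of the enzymes that attach or remove NEDD8, the small protein that switches cullins on, 10 were higher and 2 lower, with a median log2 difference of 0.12. Cul3 itself lay at 11.41 ± 0.03 on the arrays labelled KO and at 11.40 ± 0.05 on those labelled WT (SD, n = 6), a difference of 0.01 ± 0.04 (SE, adjusted p = 0.828). Rbx1, the ring subunit that recruits the ubiquitin-carrying enzyme, differed by 0.17 ± 0.06 (SE, adjusted p = 0.0601). The largest rises were those of Dcun1d2 (0.57 ± 0.06), Senp8 (0.50 ± 0.11) and Dcun1d4 (0.37 ± 0.06), which add NEDD8 to cullins or process it, and Gps1, a subunit of the COP9 signalosome that takes NEDD8 off, differed by 0.30 ± 0.04 (SE). Dcun1d3 differed by -0.32 ± 0.08 (SE).

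Of 20 thin filament genes 6 were higher, Cfl2 included, and 8 lower, with a median of -0.08, and 3 were lower with each array centred on its median over the whole table. After Lmod2 the largest falls were those of Tnni1, Tnnc1 and Tnnt1, the troponin subunits of slow fibres, at -0.66 ± 0.07, -0.59 ± 0.13 and -0.28 ± 0.09 (SE). After Cfl2 the largest rises were those of Tmod4, the pointed end cap of skeletal muscle filaments, at 0.49 ± 0.06, and Cfl1, the cofilin of most cell types, at 0.47 ± 0.09 (SE). Acta1, the skeletal muscle actin gene, differed by -0.07 ± 0.03 (SE, adjusted p = 0.0879).

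Among genes of the Z-disc and of the membrane sites where NRAP and nebulin are anchored, 5 of 25 were higher and 16 lower, with a median of -0.25. Xirp2 and Csrp3, whose products act at Z-discs and myofibril ends, differed by -1.23 ± 0.14 and -1.21 ± 0.10 (SE). Flnc, the gene of filamin-C, differed by -0.64 ± 0.10, and Vcl, Tln1 and Actn2, which encode vinculin, talin and alpha-actinin, by -0.31 ± 0.06, -0.41 ± 0.09 and -0.19 ± 0.04 (SE). The study gives Vcl as upregulated in its cofilin-2 deficient mice, opposite to its direction by the labels here. Myoz3 and Actn3 were higher, by 1.13 ± 0.17 and 0.54 ± 0.07 (SE).

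Of 14 genes mutated in nemaline myopathy in humans, 5 of them members, 6 were higher and 5 lower, and 1 was lower with each array centred on its median over the whole table. Among those that are not members, Myo18b differed by -0.54 ± 0.09, Tpm3 by 0.36 ± 0.07 and Mypn by 0.31 ± 0.06 (SE). Muscle transcription regulators had 2 higher and 3 lower of 14 measured, and 5 higher with that centring. Mrtfa, a cofactor of serum response factor, was higher by 0.90 ± 0.11, while Srf itself, Mef2c and Mef2a differed by -0.23 ± 0.06, -0.26 ± 0.07 and -0.18 ± 0.05 (SE). E2f1, a cell cycle factor, was higher by 0.43 ± 0.06 (SE).

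**Figure D5:**
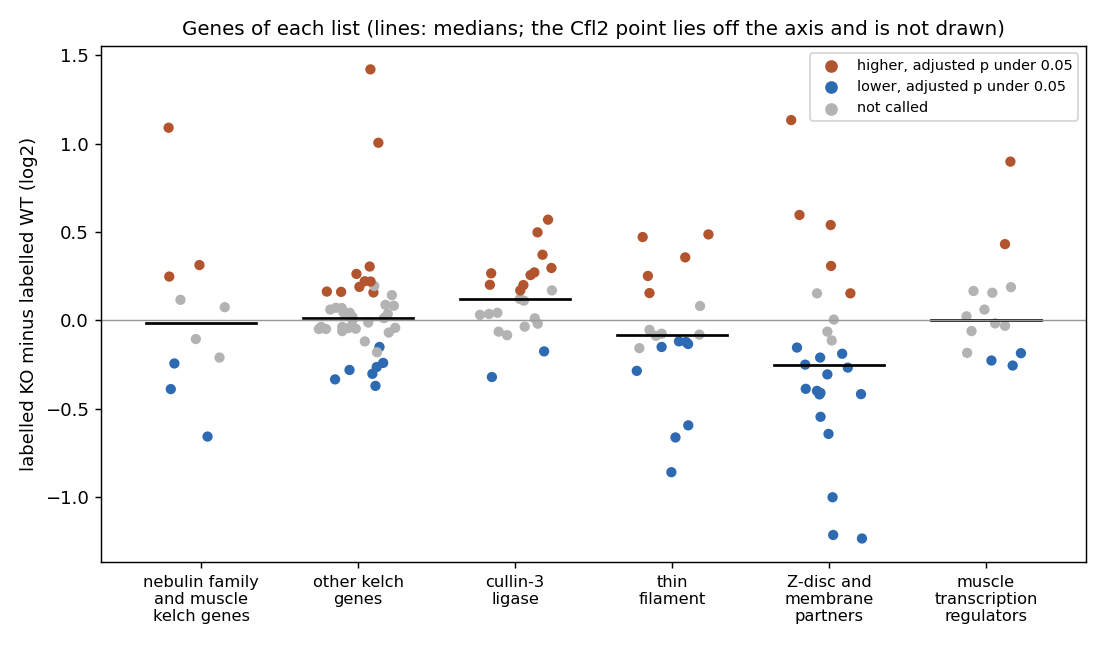
Difference in log2 level, labelled KO minus labelled WT (y axis), of every gene in 6 lists (x axis). Each point is a gene, coloured by whether it was higher, lower or did not pass at an adjusted p of 0.05, and lines are medians. Cfl2 counts in its median but lies off the axis and is not drawn. The line of the Z-disc and membrane partners lies at -0.25 and that of the cullin-3 ligase at 0.12.

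Genes of other cell types moved between the groups as well, and in whole muscle fewer cells of a type and less RNA per cell cannot be told apart. Of 8 macrophage markers 7 were higher and 0 lower, with means of 8.72 to 8.93 in labelled KO muscle and 8.19 to 8.69 in labelled WT muscle. Of 7 fibroblast markers 6 were higher and 1 lower (11.54 to 11.69 in labelled KO, 11.16 to 11.42 in labelled WT), and of 6 endothelial markers 4 were higher and 0 lower (10.22 to 10.36 in labelled KO, 9.70 to 10.16 in labelled WT). Of 8 measured adipocyte markers 4 were higher and 1 lower (8.53 to 10.11 in labelled KO, 8.60 to 9.47 in labelled WT), and the lowest array of the group labelled KO was KO5. Of 4 satellite cell markers 2 were higher and 0 lower, and 1 was higher with quantile normalization or with arrays centred on the tested probe sets. Of 4 tendon markers 2 were higher and 1 lower, and 0 of 2 measured Schwann cell markers passed. Of the 10 skeletal muscle markers 2 were higher and 2 lower, with 4 lower on centring over the tested probe sets and 0 over the whole table. Of the 7 cardiac markers 1 was higher and 3 lower, and 0 were higher with quantile normalization. None of the 6 neutrophil and 2 measured red cell markers passed in limma. Their means were 5.66 to 6.07 and 8.12 to 8.94 in labelled KO muscle, whereas the array labelled WT4 stood apart at 9.375 and 10.395, with the others labelled WT at 5.82 to 6.25 and 7.12 to 8.17. WT4 was also the highest array for Nrap and Neb, and without it these differed by -0.34 and -0.21 (adjusted p = 0.00117 and 0.0452 in limma). The part of these cells in the differences of the 10 genes was not tested. With the adipocyte covariate Kbtbd13, Lmod3, Nrap and Neb kept their calls. That covariate itself differed between the groups, with means of 9.63 in labelled KO and 8.85 in labelled WT. A call kept or lost with it therefore cannot show the part of adipocytes.

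The genes whose pattern over the 12 arrays was closest to that of Kbtbd13, the member with the largest rise, were Ctsc, Igfbp5 and Ly86. Closeness was the root mean square difference between profiles that had each been centred on their own mean, and it was 0.08, 0.09 and 0.11 log2 units. The group difference is part of such a profile. Genes chosen as close to a member therefore share the direction and roughly the size of its difference by the choice itself. Ctsc encodes a lysosomal protease, Igfbp5 a binding protein of insulin-like growth factors and Ly86 a surface protein of immune cells. They were higher by 0.98 ± 0.08, 1.16 ± 0.07 and 1.01 ± 0.11 (SE). Closest to Klhl38, the member with the largest fall, were Abtb1, Art5 and Pdk4, at 0.17, 0.20 and 0.20 log2 units. Pdk4, a kinase that turns down glucose oxidation in fasting and a member of the fasting list, lay at 11.48 to 11.70 on the arrays labelled KO and at 11.82 to 12.43 on those labelled WT. Abtb1 and Art5 differed by -0.60 ± 0.10 and -0.56 ± 0.08 (SE).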

How the data were processed

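RNA was hybridized to Affymetrix Mouse Gene ST arrays, 1 per mouse, and the authors normalized the signals to gene level with Affymetrix Power Tools (version, method and build: not given in the sources used here). Their deposited table names no scale, and its range was read as log2. Of 35556 rows, 21789 had exactly 1 gene symbol in the platform annotation and were tested; 1621 had several and 12146 were not listed. A RefSeq table gave current symbols (21698 probe sets matched by identifier). Groups came from the sample titles.

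Differences are labelled KO minus labelled WT from lmFit and eBayes of limma 3.58.1 in R 4.3.3, without covariates, filter or further normalization. Folds are 2 to the power of the difference. On simulated data with 21789 probe sets 50 changes of each size were planted. The fit recovered 19 at 0.25 log2 units, 43 at 0.5, 49 at 1 and 50 at 2, besides 9 false calls. All other simulated probe sets were left unchanged, whereas 31.9% passed in the data. The adjustment is stricter when few change, so these shares need not hold for the data. Precision is limited by how many arrays there were. The members, lists and tests were chosen with earlier results of these data known. Named are all members, Cfl2, the partners in the fixed pairs, up to 4 called genes with the largest change in a list, and the 3 genes nearest to the extreme members; other list genes were chosen for their role after their values were seen. Alternatives were other scalings, a filter on dim probe sets, other variance models, covariates, the replicate block, the methods' t-test and leaving arrays out. Cell type lists are given by counts or by their means on each array. Promoters came from RefSeq windows, and a window was at hand for 6 of the 10 genes.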

Additional observations from a re-analysis of the deposited data

Results flagged for a closer look

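In 36 groups of 6 arrays (10 genes and 8 within-array differences in each labelled group), 4 held 1 array farther from the rest than the 95% critical value of Dixon's test allows, and chance alone marks about 1 in 20 such groups. Klhl38 was at 9.55 on the array labelled KO5, with the others labelled KO at 8.79 to 9.02. Klhl40 was at 9.16 on the array labelled WT6, with the others labelled WT at 9.44 to 9.57. Klhl41 was at 12.24 on the array labelled KO3, with the others labelled KO at 12.32 to 12.36. Klhl40 minus Lmod3 was -1.43 on the array labelled KO4, with the others labelled KO at -1.58 to -1.54. The array labelled KO5 was also the lowest of its group in adipocyte markers, at 8.53, and the array labelled WT6 the highest in fasting and glucocorticoid genes, at 10.21.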

How the results depend on the processing

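Of 27 alternatives of the fit, Kbtbd13 passed in 27, Lmod3 and Nrap in 26, Klhl40 in 25, Klhl38 in 24 and Neb in 21. Neb also missed with quantile normalization (-0.21, adjusted p = 0.0634), with each array centred on its median over the whole table (-0.19, adjusted p = 0.0697, chosen after seeing the data) and without the arrays labelled WT1, WT2 and WT6 (-0.25, adjusted p = 0.0993). Centring on the median of the tested probe sets brought in Nebl (-0.27) and Klhl41 (-0.17) and raised the number of lower members to 5. Without those 3 arrays 1 member was lower. With any 1 array left out the count was 3 higher and 2 to 4 lower. Over all probe sets 4250 were higher and 2702 lower (61.1% higher), with 5853 lower on centring over the tested probe sets (36.2% higher), 1557 lower on centring over the whole table (77.8% higher) and 1789 lower without the 3 arrays. Quantile normalization gave 50.6% higher. With the adipocyte covariate 2698 were higher and 1345 lower. The methods' t-test called the same 6 members after Benjamini-Hochberg, and over all probe sets 6342. With unadjusted p and the methods' ratio limits it called 8864, with those 6 members among them, where the ratio was between geometric means of linear levels. With the same limits on the ratio of mean log2 values, an alternative chosen after seeing the data, it called 1503 higher and 585 lower, and of the members 1 higher (Kbtbd13) and 1 lower (Klhl38). The methods name a geometric mean fold change and do not give the scale of its input. The study's own count of genes lies nearer to the count with the ratio of mean log2 values than to 8864. Centring over the whole table left 0 fibroblast markers lower (1 as deposited), and the other 2 scalings made 1 endothelial marker lower (0 as deposited). In each of these the cause was not tested.

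The study describes its mice as 6 pairs of knockout and wildtype littermates, but the titles do not say whether equal replicate numbers mark a pair. Only 2 of the 6 same-numbered pairs had deviations from the group means with a correlation over 0.1 (-0.223 to 0.168). Such correlations cannot show which arrays came from littermates. With the replicate block the fit called the same 6 members, with 3911 probe sets higher and 2163 lower. For the 8 pairs of genes the block leaves 6 differences each, which were tested over all changes of their signs. The adjusted p was 0.0625 for Klhl40 minus Neb (0.49), Kbtbd13 minus Neb (1.33), Nrap minus Neb (-0.14) and Lmod3 minus Lmod2 (1.17). It was 0.1 for Klhl41 minus Nrap (0.28), and no pair passed. With 6 differences the smallest p is high, and a pass would have needed most of the 8 pairs to reach it. This test therefore cannot decide whether the pairs hold with the block. Klhl41 minus Nrap ranged from 0.24 to 0.35 with 1 array left out. Nebl minus Neb ranged from -0.0323 to 0.0997, and its sign turned without the array labelled KO2 or WT4 (-0.0103 and -0.0323). Nrap minus Neb was -0.14 with limma (adjusted p = 0.0567).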
